A study of Homo sapiens with 12 samples.

Results

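Wild-type cells of the lines HCC-LM3 and Huh-7 were compared across all genes by RNA sequencing. The members were chosen by label alone, as the untreated wild-type libraries of each line: 3 of HCC-LM3 and 3 of Huh-7, which are 6 of the 12 libraries of the series. The other libraries are METTL5 knockouts and do not enter. Both lines are labelled human liver cancer cells. HCC-LM3 is known as a hepatocellular carcinoma line with a high capacity to metastasize, and Huh-7 as one that keeps many functions of hepatocytes. Total RNA was taken with TRIzol, and all 6 libraries carry the genotype WT and no treatment. The labels number the replicates without naming cultures, passages or days, so the spread between libraries may be technical.

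Hepatocytes make most plasma proteins, and their identity is held by a circuit of transcription factors that bind each other's promoters, chiefly HNF4A, the FOXA proteins, CEBPA and the ONECUT proteins. Fetal liver and many liver cancers also express oncofetal genes such as AFP and GPC3, which the adult liver largely shuts off. Carcinoma cells that gain motility often lose E-cadherin and tight-junction proteins and gain mesenchymal, matrix and protease genes.

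The promoters of 2 interferon-induced genes are shown because they hold the motif of the gene list, cell type markers aside, with the highest median difference toward HCC-LM3. They are the 250 bases before the RefSeq start on GRCh38.p14, written 5′ to 3′ on the gene's strand, and capitals mark the motif. This motif, GAAA, any 2 bases and then GAAACT, on either strand, is the interferon-stimulated response element. The genes are the antiviral tether BST2 (chr19:17405631-17405880, minus strand) and beta-2-microglobulin (B2M, chr15:44711267-44711516, plus strand), the light chain of MHC class I.
BST2: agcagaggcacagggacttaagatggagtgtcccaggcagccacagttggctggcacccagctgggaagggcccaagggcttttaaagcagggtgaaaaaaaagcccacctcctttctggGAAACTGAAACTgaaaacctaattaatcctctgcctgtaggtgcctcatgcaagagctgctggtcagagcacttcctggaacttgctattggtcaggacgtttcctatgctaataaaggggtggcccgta
B2M: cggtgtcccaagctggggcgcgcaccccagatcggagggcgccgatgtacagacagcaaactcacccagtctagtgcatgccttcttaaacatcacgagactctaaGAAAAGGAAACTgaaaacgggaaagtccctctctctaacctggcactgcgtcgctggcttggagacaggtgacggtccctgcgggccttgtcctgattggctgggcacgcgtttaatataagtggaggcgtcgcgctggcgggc
The motif was found in 79 of the 35116 promoters of the table (0.225%), and in 11 of the 32 interferon and antigen presentation genes with a promoter, out of 44 listed. A match is a description of the letters and not evidence of binding.

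The libraries held 21730022 to 25704067 counts in HCC-LM3 and 18556078 to 25797807 in Huh-7. Levels are given as CPM, which are counts scaled to depth with the trimmed mean of M values (TMM), and as mean ± SD over the 3 libraries where a mean is printed. The 10 most abundant genes took 7.61% to 8.45% of counts in HCC-LM3 and 12.6% to 13.5% in Huh-7. Mitochondrial transcripts took 4.24% to 4.75% and 10.6% to 11.6%. The GC content of the transcripts, weighted by counts, was 52.1% to 52.7% and 54.3% to 54.6%. The median difference of genes with a transcript GC content over 62% was -0.69 on the log2 scale, against 0.39 for those under 38%, and the part of GC content in the list results was not tested beyond an alternative with offsets for it. Across genes, log2 CPM correlated at 0.988 to 0.994 between libraries of a line and at 0.599 to 0.616 between lines. HCC-LM3 replicate 1 stood apart from the other two, with a chi-square per gene of 35.8 and 29.4 against 4.05 between them, and ribosomal proteins took 9.34% of its counts against 8.09% and 8.22%. Without it 8487 genes were past 2-fold by the rule below, 4105 higher in HCC-LM3 and 4382 in Huh-7.

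The defining markers of hepatocytes go against the tissue label in the libraries labelled HCC-LM3. Of 12 markers, all 12 were higher in Huh-7, and their summed level was 34.0 to 37.7 CPM in HCC-LM3 and 15389 to 17004 CPM in Huh-7. Albumin (ALB) was at 0, 0 and 0.0393 CPM in the HCC-LM3 libraries, which is 1 count in all, and at 985, 1029 and 961 CPM in Huh-7. Alpha-1-antitrypsin (SERPINA1), transthyretin (TTR), APOB and APOH had 0 counts in every HCC-LM3 library, so nearly all of the HCC-LM3 sum is HNF4A. These 4 passed a filter on low counts only through Huh-7, which fixed their direction. All 12 had counts in Huh-7. Because all 3 HCC-LM3 libraries share this pattern, no result can be given without the libraries it touches, and "HCC-LM3" below means the libraries labelled so.

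Markers of other cells were also checked. KRT7 and KRT19, keratins of bile duct cells, split between the lines: KRT7 was at 403, 293 and 313 CPM in HCC-LM3 and 0 in Huh-7, and KRT19 was at 0.196, 0.196 and 0.236 CPM in HCC-LM3 and 592, 639 and 566 CPM in Huh-7. The sum of 8 cholangiocyte markers was 347 to 461 and 732 to 789 CPM. The sums of the fibroblast markers were 50.04 to 55.6 and 36.1 to 40.1 CPM, and those of the endothelial markers 2.67 to 3.54 and 16.4 to 17.7 CPM. The leukocyte sums of 48.0 to 58.0 and 78.3 to 92.3 CPM came mostly from CD68, a lysosomal protein that other cells also make. LYZ (0.0589 ± 0.05198 CPM in HCC-LM3 and 24.3 ± 2.28 CPM in Huh-7) and CD14 (0.179 ± 0.122 and 4.37 ± 0.546 CPM) were higher in Huh-7 past 2-fold. PTPRC, the pan-leukocyte marker, was at 0 in HCC-LM3 and 0.015 CPM in Huh-7, and erythroid genes summed to at most 0.314 CPM. PECAM1 had 0 counts in HCC-LM3, and 4 of 7 endothelial and 4 of 8 leukocyte markers were at 0 there, against 2 and 2 in Huh-7. In bulk RNA, fewer cells of a type and less RNA per cell cannot be told apart.

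METTL5, the enzyme targeted in the knockouts, was at 10.5, 10.7 and 12.8 CPM in HCC-LM3 and 10.8, 14.04 and 10.3 CPM in Huh-7. These values overlap, with a difference of -0.05 on the log2 scale (SE 0.16, edgeR adjusted p = 0.789). TRMT112, its partner protein, was at 156, 114 and 123 CPM in HCC-LM3 and 306, 334 and 282 CPM in Huh-7. The groups do not overlap, and the log2 fold change was -1.23 (SE 0.13). Its call past 2-fold (adjusted p = 0.0220) ended with library totals as scaling (log2 -0.85) and under 7 other alternatives, among them leaving out HCC-LM3 replicate 2 (log2 -1.15), HCC-LM3 replicate 3 (-1.18) or Huh-7 replicate 2 (-1.16).

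Most tested genes differed between the lines. With edgeR's quasi-likelihood test, 13181 of 15940 genes (82.7%) had a Benjamini-Hochberg adjusted p under 0.05, 42.7% higher in HCC-LM3 and 40.0% in Huh-7. In 13288 genes (83.4%) the values of the lines did not overlap. A stricter test in the same fit asked whether a difference was larger than 2-fold, and "past 2-fold" below means an adjusted p under 0.05 in it. It called 7788 genes (48.9%): 3915 higher in HCC-LM3 (24.6%) and 3873 higher in Huh-7 (24.3%). These shares are the background for every count below. HCC-LM3 took 50.3% of the calls past 2-fold, but 61.9% with library totals as scaling and 68.1% with the deposited TPM. The median gene was at a log2 fold change of 0.071, which moved to 0.459 with library totals and 0.676 with TPM.

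Some genes were found in 1 line alone. Among 13634 tested protein-coding genes, 85 reached 10 CPM in HCC-LM3 with 0 counts in all Huh-7 libraries, and 141 reached it in Huh-7 with 0 counts in all HCC-LM3 libraries. At 100 CPM these numbers were 12 and 20. A count of 0 allows up to 0.118 CPM in HCC-LM3 and 0.183 CPM in Huh-7, taking 3 counts per library as the floor. Folds against such groups are given as bounds from that floor, and intervals and floors cover counting error only. A tested gene at 0 counts in 1 line passed the filter on low counts only through the other line. That fixed its direction in the counts of list members below.

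**Figure D1:**
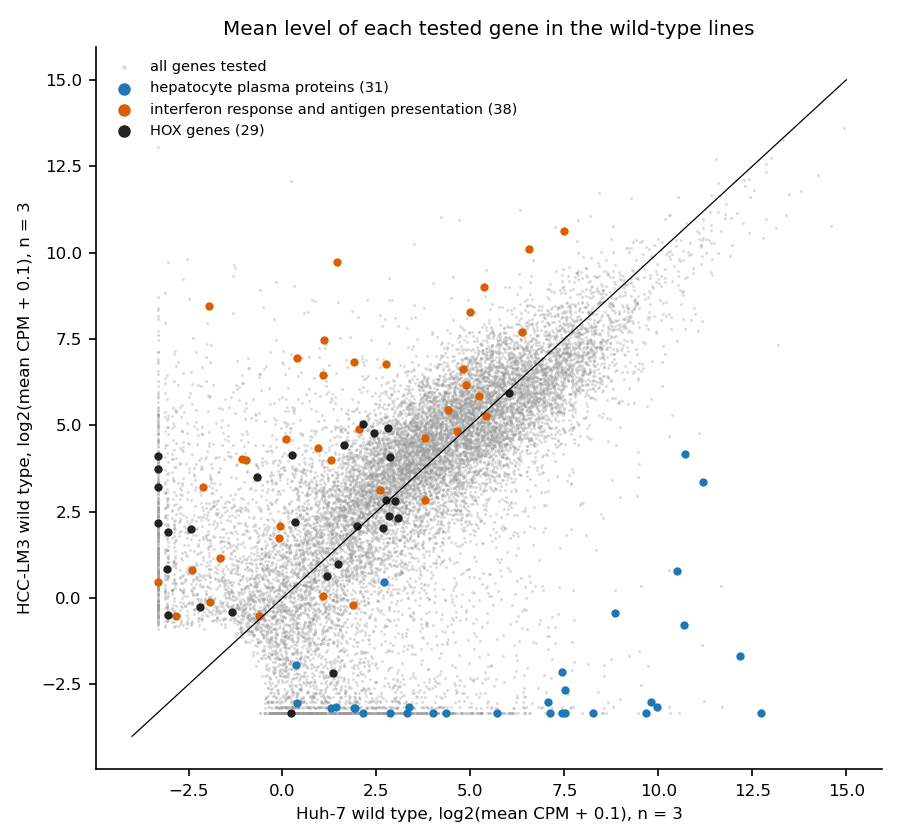
Mean level of each tested gene in Huh-7 (x axis) and HCC-LM3 (y axis), both as log2(CPM + 0.1) over 3 libraries, with equal levels on the line. The 31 tested plasma protein genes lie below the line, mostly at the floor of HCC-LM3, while 28 of 38 interferon and antigen presentation genes were higher in HCC-LM3 past 2-fold.

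The transcription factors of the hepatocyte circuit were lower or absent in HCC-LM3, with a few kept. Of 27 tested factors, 19 were higher in Huh-7 past 2-fold and 1 in HCC-LM3, and the median log2 fold change was -2.53. GATA4, FOXA3, FOXA2, PROX1, ONECUT1 and NR0B2 had 0 counts in every HCC-LM3 library. FOXA3, a pioneer factor of the liver, was at 176, 181 and 171 CPM in Huh-7, at least 1493-fold higher. For FOXA2 the Huh-7 libraries had 72.8, 63.9 and 74.9 CPM, at least 598-fold higher, and for GATA4 they had 196, 173 and 211 CPM, at least 1637-fold higher. PROX1, which is needed for hepatocyte outgrowth in the embryo, was at 36.2, 34.8 and 37.9 CPM. For these genes the lines do not overlap.

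HNF4A, a nuclear receptor at the centre of the circuit, differed in degree. It (chromosome 20, 44355700 to 44434596 on GRCh38) was at 37.5, 37.3 and 33.7 CPM in HCC-LM3 and 412, 402 and 442 CPM in Huh-7, a difference of -3.53 in log2 terms (SE 0.12, adjusted p past 2-fold = 3.29e-18). It had counts in all 6 libraries. CEBPA, a basic leucine zipper factor of differentiated hepatocytes, was at 22.3, 18.4 and 15.1 CPM in HCC-LM3 and 708, 658 and 740.3 CPM in Huh-7 (log2 -5.24, SE 0.16).

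FOXA1 was at 4.56, 5.14 and 4.29 CPM in HCC-LM3 and 39.1, 37.1 and 39.6 CPM in Huh-7, so that of the 3 FOXA genes it alone had counts in HCC-LM3. Nuclear receptors followed the same side: the bile acid receptor NR1H4 was at 0.0131 ± 0.0227 and 7.07 ± 0.884 CPM, the xenobiotic receptor NR1I2 at 0.0349 ± 0.03296 and 3.98 ± 0.558 CPM, NR5A2 at 0.887 ± 0.348 and 14.8 ± 1.78 CPM, and the oxysterol receptor NR1H3 at 18.3 ± 2.46 and 79.2 ± 1.89 CPM. RXRA, which pairs with several nuclear receptors, was at 166, 149 and 147 CPM in HCC-LM3 and 183, 179.5 and 203 CPM in Huh-7. Its log2 fold change of -0.29 turned to 0.09 with library totals and 0.33 with offsets for GC content and length. CEBPB and PPARA were not called. TBX3 was higher in HCC-LM3 but not past 2-fold.

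**Figure D2:**
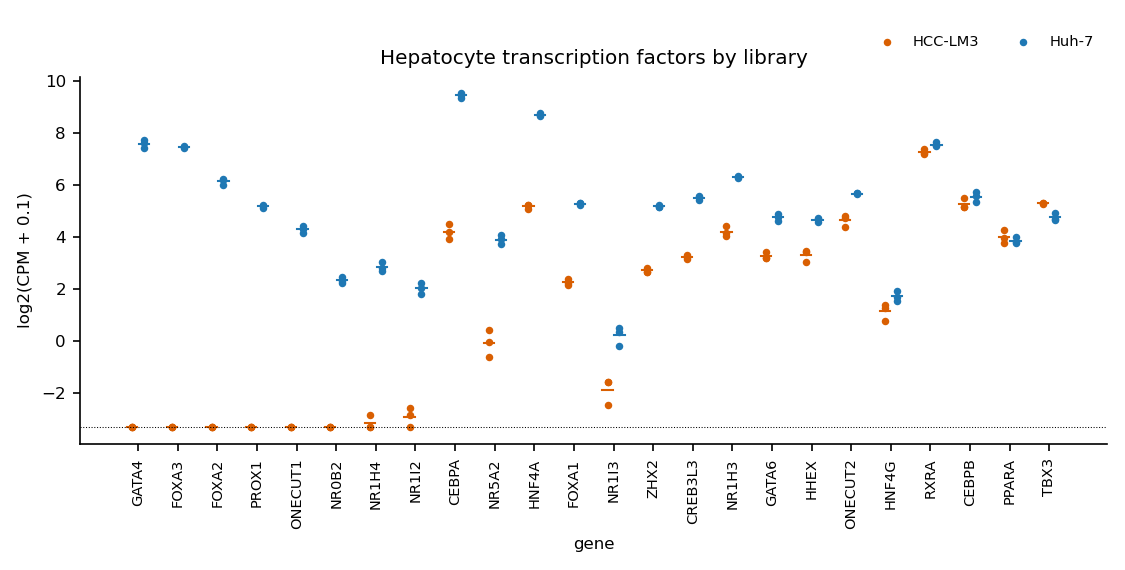
Level of 24 of the 27 tested hepatocyte transcription factors as log2(CPM + 0.1), with a point for each library, a line at the mean of the 3 plotted values, and a dotted line at 0 counts. Factors are in order of their log2 fold change, and 6 on the left have 0 counts in all HCC-LM3 libraries.

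The secreted products of hepatocytes were nearly all missing from HCC-LM3. Of 31 tested plasma proteins, 31 were higher in Huh-7 past 2-fold, with a median log2 fold change of -10.84 (-9.16 with genes at 0 counts set to their bound), and 14 of the 36 listed had 0 counts in all HCC-LM3 libraries. Tested genes at or near 0 in HCC-LM3 passed the filter on low counts only through Huh-7. The filter thus largely fixed the direction of this list, and its 5 untested genes are not counted. SERPINA1 (chromosome 14, 94376747 to 94390693 on GRCh38) was at 0 CPM in HCC-LM3 and at 7003, 7092 and 6439 CPM in Huh-7, at least 57983-fold higher. TTR, the carrier of thyroxine and retinol, was at 0 and 845, 872 and 738 CPM, at least 6932-fold higher. Fetuin-A (AHSG) had 2 counts in HCC-LM3 and 913, 911 and 863 CPM in Huh-7, a ratio of 36539 with a 95% counting interval from 10114 to 301721. The few with a clear level in HCC-LM3 were still far lower there: retinol-binding protein (RBP4) was at 21.8, 15.8 and 15.5 CPM against 1781, 1662 and 1567 CPM, and vitronectin (VTN) at 10.1 ± 1.13 against 2317 ± 71.6 CPM. ORM1 and ORM2 are near copies whose reads may be exchanged.

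Lipoprotein genes showed the same gap. Of 19 tested apolipoproteins and assembly genes, 17 were higher in Huh-7 past 2-fold and 0 in HCC-LM3. Of the 22 listed, 9 had 0 counts in all HCC-LM3 libraries, and the tested ones among these could be called only toward Huh-7. APOA1, the main protein of HDL, was at 0.0393, 0 and 0 CPM in HCC-LM3 and 3316, 3549.8 and 3045 CPM in Huh-7. APOB, the backbone of VLDL and LDL, was at 0 and 1189, 1296 and 1315 CPM, at least 10733-fold higher, and MTTP, which loads lipid onto it, was at 0.0109 ± 0.0189 and 50.3 ± 5.28 CPM. APOE, which other tissues also make, was at 0.589, 0.131 and 0.157 CPM in HCC-LM3 and 2322, 2320.0 and 2263 CPM in Huh-7. The HDL receptor SCARB1 was at 351, 329.9 and 325 CPM in HCC-LM3 and 664, 615 and 675 CPM in Huh-7 (log2 -0.96), a difference not past 2-fold.

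Coagulation genes followed, with exceptions. Of 20 tested, 16 were higher in Huh-7 past 2-fold and 3 in HCC-LM3, and the median was -7.93 (-6.66 at the bounds). Prothrombin (F2) was at 0.196, 0.131 and 0.157 CPM in HCC-LM3 and 388, 367 and 381 CPM in Huh-7. FGA, the fibrinogen alpha chain, was at 0.0393, 0.0327 and 0 CPM in HCC-LM3 and 380.2, 458 and 371 CPM in Huh-7, and the other fibrinogen chains FGB and FGG at 0.0459 ± 0.0494 and 0.0131 ± 0.0227 CPM against 194 ± 19.4 and 120.3 ± 13.7 CPM. Those higher in HCC-LM3 included coagulation factor F8 and tissue plasminogen activator (PLAT, 5.02 ± 0.464 against 0.439 ± 0.01404 CPM), both made outside hepatocytes. With DESeq2 size factors, 1 coagulation gene was past 2-fold in that direction.

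Complement split into 2 sides. Of 18 tested genes, 10 were higher in Huh-7 past 2-fold and 6 in HCC-LM3, with a median of -2.09. Higher in Huh-7 were soluble factors such as the C1 inhibitor SERPING1 (0.164 ± 0.131 against 280.3 ± 5.28 CPM), C2 and MASP1. Higher in HCC-LM3 were the membrane regulators that protect cells from complement. CD55, which breaks up convertases, was at 371, 374 and 397 CPM against 3.14, 2.99 and 1.89 CPM (log2 7.13, SE 0.17). CD46 was at 148, 234 and 227 CPM in HCC-LM3 and 32.4, 31.2 and 29.8 CPM in Huh-7, and CD59 at 175, 166 and 173 CPM in HCC-LM3 and 31.3, 33.9 and 24.8 CPM in Huh-7. The proteases C1R and C1S, at 271 ± 7.87 and 234 ± 5.69 CPM in HCC-LM3 against 6.497 ± 0.599 and 8.25 ± 1.11 CPM, were on the same side as the membrane regulators.

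Most oncofetal genes were higher in Huh-7. Of 15 tested, 10 were higher in Huh-7 past 2-fold and 2 in HCC-LM3. Alpha-fetoprotein (AFP), with 2 counts in HCC-LM3, was at 2322, 2549 and 2269.5 CPM in Huh-7. Glypican-3 (GPC3), with 1 count, was at 464, 451 and 423 CPM, and DLK1 was at 0.0393, 0.0327 and 0.0393 CPM in HCC-LM3 and 97.6, 78.4 and 87.99 CPM in Huh-7. LIN28B, which blocks let-7 maturation, had 0 counts in HCC-LM3 and 56.6, 57.7 and 56.6 CPM in Huh-7, at least 483-fold higher. HMGA2 was at 2.47, 3.08 and 2.56 CPM in HCC-LM3 and 51.4, 52.6 and 50.2 CPM in Huh-7.

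The imprinted neighbours IGF2 and H19 went in opposite directions. IGF2 was at 0, 0.0327 and 0 CPM in HCC-LM3 and 369.9, 359 and 393 CPM in Huh-7, and the readthrough gene INS-IGF2, which shares its exons, was at 0 and 1473, 1573 and 1462 CPM, so reads of this pair may be assigned to either. H19 (chromosome 11, 1995176 to 2001470 on GRCh38) was at 180.3, 186 and 165 CPM in HCC-LM3 and 0.909, 0.9799 and 0.488 CPM in Huh-7 (log2 7.77, SE 0.18, adjusted p past 2-fold = 8.23e-24). SALL4, a stem cell factor, was the other oncofetal gene higher in HCC-LM3, at 11.7, 17.2 and 16.3 CPM against 2.55, 3.16 and 3.36 CPM. IGF2BP1 was at 75.1, 83.9 and 76.3 CPM in HCC-LM3 and 221, 209 and 236 CPM in Huh-7, while TSPAN8 and IGF2BP3 were not called and IGF2BP2 not past 2-fold. The call of IGF2BP1 past 2-fold ended with library totals (log2 -1.11) and with TPM (log2 -0.62).

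Among liver metabolism genes, RNA of the bile acid and xenobiotic lists was mostly higher in Huh-7. Of 13 tested bile acid genes, 11 were higher in Huh-7 past 2-fold and 2 in HCC-LM3, though with TPM these counts were 7 and 1. CYP27A1, the mitochondrial sterol hydroxylase, was at 0.157, 0.0982 and 0.275 CPM in HCC-LM3 and 219, 218 and 208 CPM in Huh-7. The feedback axis of ileal hormone FGF19 and its receptor differed at each step: FGF19 was at 0 and 28.1, 26.9 and 27.6 CPM, FGFR4 at 27.2, 25.3 and 25.3 CPM in HCC-LM3 and 1299, 1157 and 1277 CPM in Huh-7, and the co-receptor KLB at 0.509 ± 0.115 and 33.7 ± 1.12 CPM. Of 22 xenobiotic enzymes, 16 were higher in Huh-7 past 2-fold, among them ALDH1A1 (0 and 288, 336 and 287 CPM, at least 2574-fold higher) and CES1 (0.0524 ± 0.06000 and 129 ± 4.05 CPM). Of the 35 listed, 11 had 0 counts in all HCC-LM3 libraries, so the tested ones among these could be called only toward Huh-7, and 13 were not tested. CYP1B1, a largely extrahepatic P450, and NNMT were higher in HCC-LM3, with NNMT at 60.8, 43.2 and 49.9 CPM against 2.18, 2.94 and 1.83 CPM.

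The urea cycle was split. Of 27 tested genes of the cycle and of amino acid breakdown, 19 were higher in Huh-7 past 2-fold and 5 in HCC-LM3 (median -3.35). Arginase ARG1, the last enzyme of the cycle, was at 0 in HCC-LM3 and 0.909, 1.63 and 1.77 CPM in Huh-7, at least 12.2-fold higher. CPS1 and ASS1, enzymes of earlier steps, were on the other side. CPS1, which fixes ammonia, was at 226, 319 and 283 CPM in HCC-LM3 and 7.23, 8.002 and 8.298 CPM in Huh-7 (log2 5.14, SE 0.15). Argininosuccinate synthase (ASS1, chromosome 9, 130444929 to 130501274 on GRCh38) was at 2707, 2335 and 2156 CPM in HCC-LM3 and 84.1, 70.99 and 83.8 CPM in Huh-7 (log2 4.91, SE 0.15). The next enzyme, ASL, was higher in Huh-7, at 52.1 ± 7.902 against 522 ± 6.14 CPM.

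Genes of sugar handling differed in both directions. Of 23 tested genes, 9 were higher in Huh-7 past 2-fold and 7 in HCC-LM3, and the median of -0.66 changed sign with TPM. Pyruvate carboxylase (PC), which feeds gluconeogenesis, was at 58.4, 50.7 and 52.1 CPM in HCC-LM3 and 898, 806 and 966 CPM in Huh-7, and liver pyruvate kinase PKLR at 0.0262 ± 0.0227 and 7.79 ± 0.493 CPM. Several isoforms of other tissues were higher in HCC-LM3. LDHB, the lactate dehydrogenase of heart, was at 648, 637 and 654 CPM against 0.273, 0.381 and 0.244 CPM, platelet phosphofructokinase PFKP at 562, 436 and 466 against 0.591, 0.4899 and 0.6102 CPM, and the glucose transporter SLC2A3 at 150.1, 161 and 166 against 0.273, 0.0544 and 0.183 CPM. The hexokinases split: HK1 was at 8.33, 8.12 and 7.201 CPM in HCC-LM3 and 0 in Huh-7, while HK2 was higher in Huh-7, at 1.53, 0.295 and 0.748 against 8.64, 9.09 and 8.91 CPM. ENO1, TPI1, PKM and LDHA, which every cell uses, were counted at only 1.35 to 9.88 CPM on average, so their counts are uncertain and are not compared. A switch between LDHA and LDHB, or between PKM and PKLR, can therefore not be shown.

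Lipid genes were called in both directions. Of 27 tested genes of fatty acid and sterol synthesis, 8 were higher in Huh-7 past 2-fold and 2 in HCC-LM3, and the median of -0.20 changed sign with library totals and TPM. FADS2, the delta-6 desaturase, was at 31.9, 25.1 and 25.6 CPM in HCC-LM3 and 2265, 1907 and 2342 CPM in Huh-7 (log2 -6.30, SE 0.17), and FASN at 493, 450.1 and 452 CPM in HCC-LM3 and 1608, 1306 and 1851 CPM in Huh-7. SQLE, an epoxidase of sterol synthesis, was higher in HCC-LM3 at 103 ± 3.94 against 25.7 ± 2.97 CPM. Of 29 genes of fatty acid uptake and oxidation, 10 were higher in Huh-7 past 2-fold and 7 in HCC-LM3 (median -0.59, of the other sign with TPM). The liver fatty acid binding protein FABP1 was at 0 and 95.5, 90.9 and 75.1 CPM. Higher in HCC-LM3 were the gatekeeper CPT1A (93.3, 88.7 and 90.3 against 25.8, 22.4 and 26.2 CPM) and PDK4, a brake on glucose oxidation (35.4, 46.8 and 44.7 against 0.0455, 0.0544 and 0.366 CPM).

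Iron genes were mostly higher in Huh-7, 13 of 25 past 2-fold against 3 in HCC-LM3. Transferrin (TF) was at 0.629, 0.295 and 0.512 CPM in HCC-LM3 and 1694, 1733 and 1523 CPM in Huh-7, the iron exporter SLC40A1 at 0 and 32.4, 33.9 and 31.1 CPM, and the ferritin light chain FTL at 1736 ± 246 and 24824 ± 476 CPM. The hormone hepcidin (HAMP) was at 0.0218 ± 0.0378 and 5.54 ± 0.428 CPM. Its inducer BMP6 was higher in HCC-LM3, at 18.3 ± 0.811 CPM against 0.321 ± 0.156 CPM, as was the transferrin receptor TFRC, at 267, 336 and 365 against 111, 113 and 109 CPM.

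**Figure D3:**
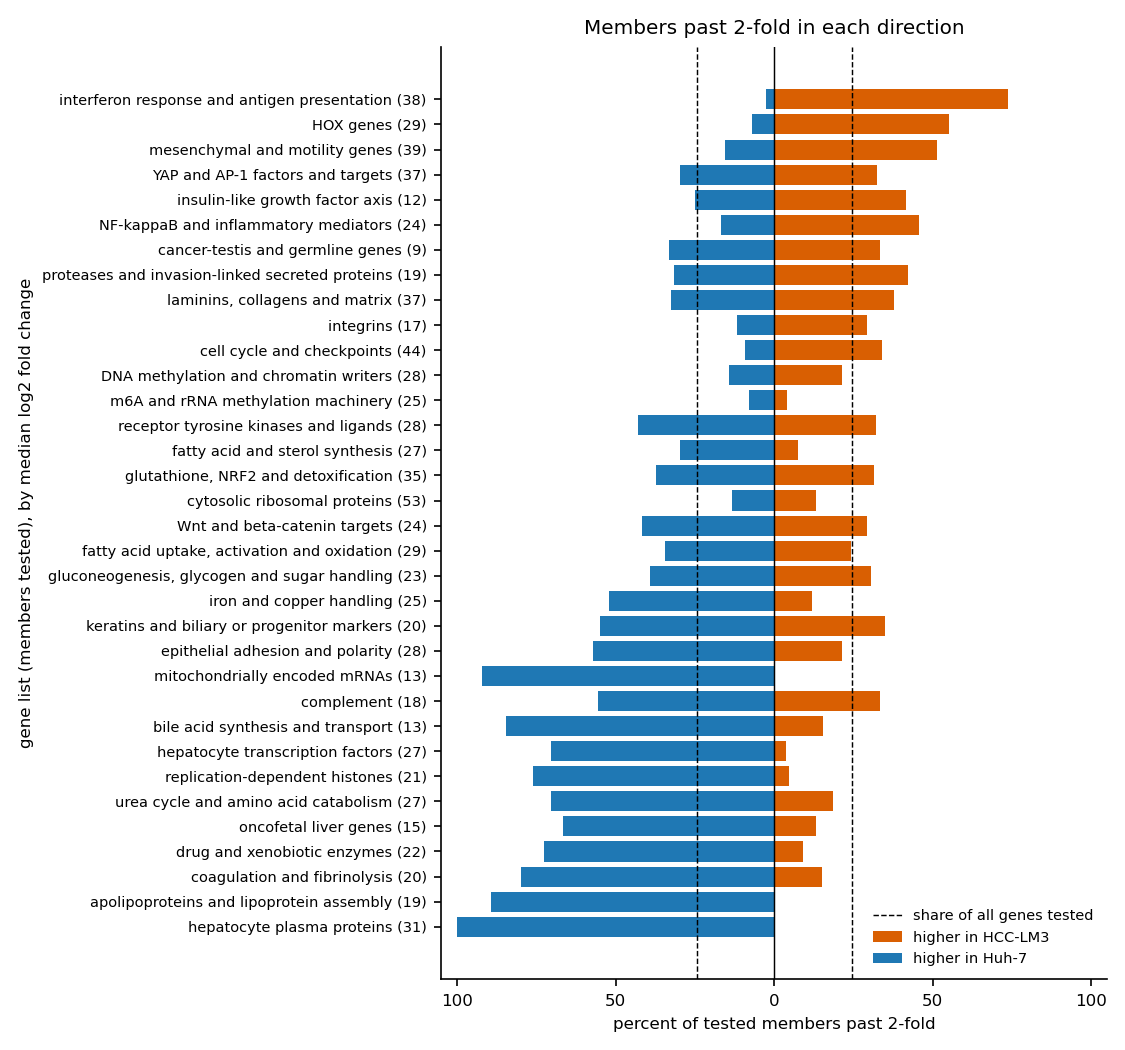
Share of each gene list's tested members that were past 2-fold higher in HCC-LM3 (right) or in Huh-7 (left), with dashed lines at the shares of all genes tested, 24.6% and 24.3%. Lists are in order of their median log2 fold change, from plasma proteins at -10.84 to interferon and antigen presentation at 3.21.

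Epithelial genes leaned to Huh-7, with some higher in HCC-LM3. Of 28 tested genes of adhesion and polarity, 16 were higher in Huh-7 past 2-fold and 6 in HCC-LM3, with a median of -1.72. E-cadherin (CDH1, chromosome 16, 68737225 to 68835548 on GRCh38) was at 1.02, 1.38 and 0.748 CPM in HCC-LM3 and 50.1, 52.2 and 57.5 CPM in Huh-7 (log2 -5.64, SE 0.18). The claudins CLDN1 and CLDN6 were at 1.17 ± 0.352 and 0.103 ± 0.0637 CPM against 121 ± 1.17 and 140.5 ± 5.58 CPM. CLDN4 and CLDN7 were on the other side, at 61.1 ± 3.28 and 23.8 ± 3.93 CPM in HCC-LM3 against 23.7 ± 3.33 and 3.22 ± 0.244 CPM, with the membrane protease ST14 at 23.6 ± 0.287 against 2.29 ± 0.267 CPM.

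The lines differed in their keratins. KRT8 and KRT18, the pair of simple epithelia, were present in both and higher in Huh-7: KRT8 was at 2539, 2005 and 2044 CPM in HCC-LM3 and 10867, 11118 and 10632 CPM in Huh-7. KRT19, KRT23 and the progenitor markers SOX9 (2.55, 2.75 and 2.52 CPM in HCC-LM3 and 79.3, 70.6 and 82.2 CPM in Huh-7) and PROM1 were higher in Huh-7. KRT17, a keratin of basal cells, was at 1019, 813 and 874 CPM in HCC-LM3 and 0.0455, 0.109 and 0.06102 CPM in Huh-7. KRT80 was at 200.3, 166 and 168 CPM against 0, at least 972-fold higher, and KRT7 was at least 1836-fold higher. CD44, a hyaluronan receptor, was at 286, 264 and 283 CPM in HCC-LM3 and 9.95, 10.6 and 11.04 CPM in Huh-7. In the list of 20 tested, 11 were higher in Huh-7 past 2-fold and 7 in HCC-LM3.

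Mesenchymal and motility genes leaned to HCC-LM3. Of 39 tested, 20 were higher there past 2-fold and 6 in Huh-7, with a median of 1.21. Moesin (MSN), which ties actin to the membrane, was at 610.2, 598 and 589 CPM in HCC-LM3 and 0, 0.0544 and 0.122 CPM in Huh-7. The receptor kinase AXL was at 202, 179 and 178 CPM in HCC-LM3 and 0.0455, 0.109 and 0.122 CPM in Huh-7, and the calcium-binding protein S100A4 at 460.2, 348 and 371 CPM in HCC-LM3 and 5.14, 4.41 and 4.52 CPM in Huh-7 (log2 6.38, SE 0.16). The factors TWIST2 (10.4, 8.97 and 8.38 CPM against 0) and SNAI2 (6.49 ± 1.13 against 0.0407 ± 0.0705 CPM) were on the same side. Fibronectin (FN1), often used as a mesenchymal marker, went the other way, at 0.903, 1.703 and 0.944 CPM in HCC-LM3 and 3148, 2800.5 and 3866 CPM in Huh-7 (log2 -11.40, SE 0.24), and TGFBI was at 30.9 ± 1.13 and 509 ± 12.1 CPM. The 8 fibroblast markers summed to 50.04 to 55.6 CPM in HCC-LM3 and 36.1 to 40.1 CPM in Huh-7. Of 6 tested, PDGFRB and COL1A1 were higher in HCC-LM3 past 2-fold and 3 in Huh-7, and LUM had 0 counts in HCC-LM3. Their part in these results was not tested. Vimentin (VIM) was expressed in both and higher in HCC-LM3, at 1136, 981 and 977 CPM in HCC-LM3 and 489, 445 and 407 CPM in Huh-7.

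Matrix genes differed by chain. Of 37 tested, 14 were higher in HCC-LM3 past 2-fold and 12 in Huh-7. COL5A1 was at 825, 878 and 861 CPM in HCC-LM3 and 0, 0 and 0.06102 CPM in Huh-7, while its partner chain COL5A2 was at 0.393, 0.7204 and 0.275 CPM in HCC-LM3 and 152, 152 and 155 CPM in Huh-7. Likewise COL1A1 was higher in HCC-LM3, at 30.4, 34.2 and 29.9 against 2.64, 3.81 and 2.14 CPM, and COL1A2 in Huh-7, at 0.196, 0.164 and 0.118 against 22.3, 21.7 and 24.3 CPM. The partner chains of both fibrillar collagens thus lay on opposite sides. Both main chains of basement membrane collagen were higher in HCC-LM3, with COL4A1 at 306 ± 10.7 against 1.39 ± 0.416 CPM and COL4A2 at 792 ± 33.3 against 0.308 ± 0.165 CPM. LAMA1 was at 89.1, 96.96 and 97.9 CPM against 0, and nidogen NID1, which joins laminin to collagen, was at 0 against 377, 348 and 448 CPM, at least 3314-fold higher in Huh-7. LOXL2, a collagen cross-linker, was at 393 ± 14.7 and 7.01 ± 0.1301 CPM.

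Proteases and their inhibitors were divided, with 8 of 19 higher in HCC-LM3 past 2-fold and 6 in Huh-7. The membrane collagenase MMP14 was at 0.157, 0.393 and 0.236 CPM in HCC-LM3 and 135, 132 and 133 CPM in Huh-7, and MMP15 at 3.88 ± 0.592 and 205 ± 23.4 CPM. Urokinase (PLAU) was higher in Huh-7, at 1.19 ± 0.287 against 24.6 ± 2.41 CPM, and its receptor PLAUR in HCC-LM3, at 59.9 ± 5.59 against 2.13 ± 0.418 CPM. TIMP1, an inhibitor of matrix metalloproteases, was at 316, 256 and 264 CPM in HCC-LM3 and 4.68, 3.702 and 3.42 CPM in Huh-7. Among 17 integrins and linked adaptors, 5 (29.4%) were higher in HCC-LM3 past 2-fold and 2 (11.8%) in Huh-7. All genes had 24.6% and 24.3%, so the share higher in HCC-LM3 was near theirs. The list median of 0.19 changed sign with offsets for GC content and length. The 5 included FERMT1 (20.1 ± 0.567 against 1.23 ± 0.582 CPM), and the laminin-binding subunits ITGA3 (169, 147 and 156 against 11.1, 10.1 and 12.02 CPM) and ITGB4 (59.6 ± 5.86 against 7.25 ± 0.647 CPM).

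Growth factor receptors were set differently. Of 28 receptor tyrosine kinases and ligands, 12 were higher in Huh-7 past 2-fold and 9 in HCC-LM3. FGFR3 and ERBB3 were higher in Huh-7, and MET, FGFR1 and IGF1R in HCC-LM3: MET was at 73.2, 104 and 117 CPM against 24.5, 26.8 and 26.3 CPM and IGF1R at 209, 208 and 214 against 35.4, 35.4 and 41.8 CPM. In the insulin-like growth factor axis, Huh-7 had the ligand IGF2 and IGFBP2. HCC-LM3 had the binding proteins IGFBP3 (615, 616 and 609 against 7.86, 7.02 and 6.28 CPM) and IGFBP1 (33.5, 33.6 and 35.6 against 0, 0 and 0.305 CPM), and the adaptor IRS2 (55.03, 61.8 and 64.7 against 1.64, 1.85 and 1.65 CPM).

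Of 37 YAP and AP-1 factors and targets, 12 were higher in HCC-LM3 past 2-fold and 11 in Huh-7 (32.4% and 29.7%, near the 24.6% and 24.3% of all genes), and with TPM 19 and 4. The AP-1 subunits FOS (62.1, 88.2 and 62.7 against 2.95, 1.96 and 1.53 CPM), FOSL1 and FOSL2 were higher in HCC-LM3, as was AXL, a YAP target given above, whereas JUND and the YAP targets CCN2 (17.9 ± 0.993 against 129 ± 8.89 CPM) and ANKRD1 were higher in Huh-7. Of 24 Wnt genes, 7 were higher in HCC-LM3 past 2-fold and 10 in Huh-7. WNT7B was at 47.5, 40.05 and 42.6 CPM in HCC-LM3 and 0.136, 0.0544 and 0.122 CPM in Huh-7, and WNT5A at 25.3, 32.3 and 31.6 CPM in HCC-LM3 and 0.136, 0 and 0.183 CPM in Huh-7. The pathway brakes RNF43 (0.653 ± 0.2397 against 14.8 ± 3.22 CPM) and AXIN2 (7.73 ± 0.961 against 2.42 ± 0.429 CPM), both classical targets of beta-catenin, went in opposite directions.

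Interferon-induced and antigen presentation genes had the highest median of the 34 lists other than cell type markers, 3.21 (3.01 at the bounds). Of 38 tested, 28 were higher in HCC-LM3 past 2-fold and 1, MX1, in Huh-7. BST2 was at 414, 311 and 319.6 CPM in HCC-LM3 and 0.182, 0.163 and 0.122 CPM in Huh-7 (log2 11.05, SE 0.24, adjusted p past 2-fold = 8.56e-25). HLA-B (chromosome 6, 31269491 to 31357188 on GRCh38), a class I heavy chain, was at 940.3, 800.1 and 819 CPM in HCC-LM3 and 2.68, 2.07 and 3.11 CPM in Huh-7 (log2 8.35, SE 0.18). Reads of the highly similar HLA genes may be shared out wrongly, and HLA-B overlaps HLA-C in the annotation. B2M, which has no near copy, was at 1136, 1086 and 1053 CPM in HCC-LM3 and 98.9, 100.2 and 84.4 CPM in Huh-7 (log2 3.53).

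The rest of the class I machinery lay on the same side. NLRC5, which switches on class I genes, was at 113, 125 and 130.2 CPM in HCC-LM3 and 0.9999, 1.31 and 1.34 CPM in Huh-7. The peptide pump TAP1 was at 120.2, 109 and 109.5 CPM in HCC-LM3 and 3.59, 2.45 and 4.82 CPM in Huh-7, and the immunoproteasome subunits PSMB8 and PSMB9 were at 88.2 ± 13.7 and 24.1 ± 5.25 CPM against 2.01 ± 0.249 and 0.967 ± 0.0381 CPM. For these genes the lines did not overlap. The 8 leukocyte markers summed to 48.0 to 58.0 CPM in HCC-LM3 and 78.3 to 92.3 CPM in Huh-7, with 4 of them at 0 counts in HCC-LM3 and 2 in Huh-7, and their part in the interferon result was not tested. STAT2, which carries the interferon signal, was not called, at 26.5, 30.7 and 28.4 CPM in HCC-LM3 and 24.8, 22.4 and 27.9 CPM in Huh-7. The DNA sensor CGAS, at 14.3, 16.05 and 17.9 against 0.364, 0.272 and 0.488 CPM, was higher in HCC-LM3. Of the 11 genes with the response element in their promoter, 8 were higher in HCC-LM3 past 2-fold, ISG15 was not, and IFI27 and IFI44 were not tested.

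NF-kappaB genes leaned to HCC-LM3. Of 24 tested, 11 were higher in HCC-LM3 past 2-fold and 4 in Huh-7. The 4 were the chemokines CCL20 (0.0393, 0 and 0.0787 CPM in HCC-LM3 and 19.5, 21.4 and 18.9 CPM in Huh-7), CXCL1, CXCL5 and CXCL8. The chemokine CCL2 was on the other side, as were cytokines of the IL6 family: IL6 was at 4.75, 4.22 and 5.08 CPM in HCC-LM3 and 0, 0.0544 and 0.06102 CPM in Huh-7, LIF at 30.8, 29.5 and 30.7 CPM in HCC-LM3 and 0.773, 0.871 and 0.976 CPM in Huh-7 and IL11 at 4.55 ± 1.21 and 0.104 ± 0.0438 CPM.

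Of 44 genes of the cell cycle and its checkpoints, 15 were higher in HCC-LM3 past 2-fold and 4 in Huh-7, but 9 and 4 with DESeq2's Wald test, and the median of 0.09 changed sign with DESeq2 size factors. MYC was higher in HCC-LM3, at 378, 351 and 338 CPM against 100.4, 78.4 and 94.7 CPM, and MYCN in Huh-7, at 0, 0.0327 and 0.118 against 26.7, 23.03 and 23.1 CPM. BAX, which opens the mitochondrial outer membrane in apoptosis, was higher in Huh-7, at 30.6 ± 5.66 against 218 ± 15.4 CPM. The death receptor FAS had 1.34, 1.997 and 2.87 CPM in HCC-LM3 and 0 counts in Huh-7. The proliferation markers MKI67 and TOP2A were not past 2-fold.

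Redox enzymes were divided between the lines, also within gene families. Of 35 tested, 13 were higher in Huh-7 past 2-fold and 11 in HCC-LM3. The aldo-keto reductases AKR1C1 (0.196, 0.196 and 0.354 CPM in HCC-LM3 and 776, 759 and 619 CPM in Huh-7) and AKR1C2 were higher in Huh-7 and their neighbour AKR1C3 in HCC-LM3 (67.01, 55.9 and 58.04 against 1.36, 1.74 and 1.22 CPM). These genes are near copies, and how their shared reads were counted is not given. GPX3 was at 0.192 ± 0.0604 and 428 ± 29.5 CPM, GPX2 at 0 and 85.1 ± 7.18 CPM, and GPX8 at 24.2 ± 0.8596 and 0.901 ± 0.258 CPM. Of 26 cancer-testis antigens, germline genes that tumours switch on, 9 were tested and 3 were past 2-fold in each direction, within 1 gene of the share of all genes. MAGEA1 was at 57.5, 57.5 and 56.5 CPM in HCC-LM3 and 0 in Huh-7, and MAGEB2 at 0 and 30.6, 24.2 and 25.5 CPM.

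HOX genes, which fix position along the body axis, differed by cluster. Of 29 tested, 16 were higher in HCC-LM3 past 2-fold and 2 in Huh-7, with a median of 2.11. All 7 tested HOXB genes were higher in HCC-LM3, but all except HOXB7 were at or near 0 in Huh-7. Genes at 0 there passed the filter on low counts only through HCC-LM3, which fixed their direction. Of the 39 listed HOX genes, 10 were not tested. HOXB13 was at 18.97, 16.9 and 15.3 CPM against 0, at least 93.1-fold higher, and HOXB6 at 10.7, 14.96 and 13.6 CPM against 0, at least 71.6-fold higher. In the HOXA cluster the posterior genes HOXA10 (27.9, 26.98 and 27.8 against 5.27, 5.33 and 5.43 CPM), HOXA11 and HOXA13 and the anterior HOXA5 were higher, and the other 6 tested were not past 2-fold. In the HOXC cluster HOXC10 was not called, at 66.98, 60.7 and 56.8 CPM in HCC-LM3 and 62.8, 70.01 and 61.6 CPM in Huh-7, HOXC11 and HOXC13 were higher in HCC-LM3 and HOXC5 in Huh-7. HOXD9 was at 11.4, 8.22 and 8.03 CPM against 0, and HOXD1 at 0 against 1.32, 0.9799 and 0.915 CPM.

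**Figure D4:**
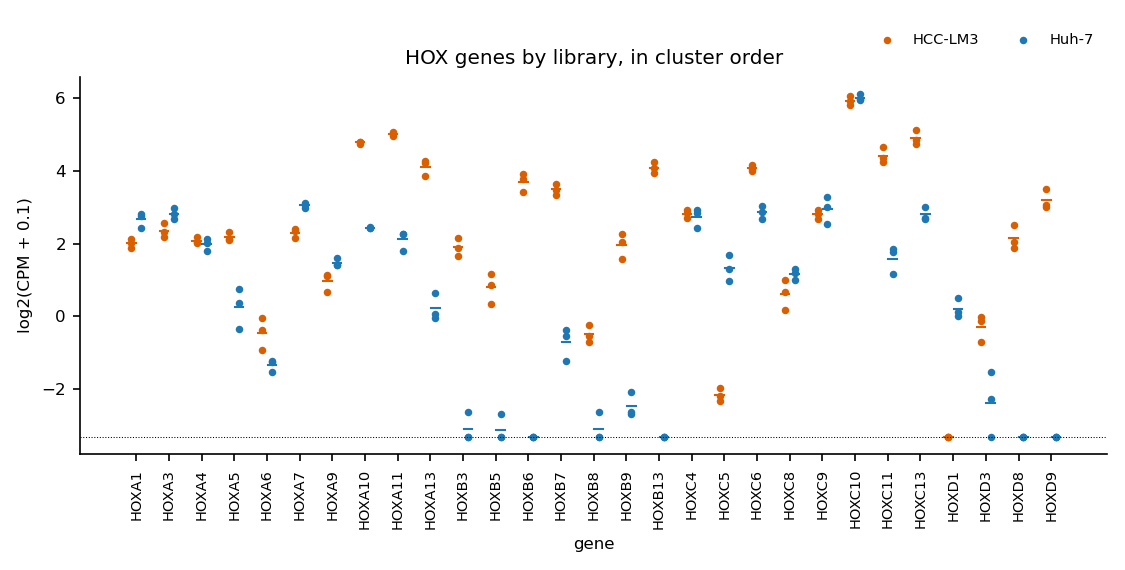
Level of each of the 29 tested HOX genes as log2(CPM + 0.1), with a point for each library, a line at the mean of the 3 plotted values, and a dotted line at 0 counts. The tested HOXB genes other than HOXB7 are near or on the dotted line in Huh-7, and all 7 are higher in HCC-LM3.

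Of 28 DNA methylation and chromatin writers, 6 were higher in HCC-LM3 past 2-fold and 4 in Huh-7, against 24.6% and 24.3% of all genes. Among these were SMARCA2, an ATPase of the SWI/SNF remodeler, at 19.1, 23.2 and 23.5 CPM in HCC-LM3 and 0.136, 0.218 and 0.183 CPM in Huh-7 (log2 6.91, SE 0.27), and TET1, which oxidizes methylcytosine, at 0, 0.0655 and 0.0393 CPM in HCC-LM3 and 6.18, 6.64 and 6.04 CPM in Huh-7. SMARCA4, the paralog of SMARCA2, was at 155 ± 8.76 and 274 ± 17.2 CPM. Of 25 genes of m6A and rRNA methylation, METTL16 was higher in HCC-LM3 past 2-fold (40.8, 46.6 and 41.5 against 12.5, 13.3 and 12.9 CPM), and ZC3H13 and TRMT112 in Huh-7. These were 4% and 8% of the list, below the shares of all genes. Of 53 ribosomal protein genes, 7 (13.2%) were past 2-fold in each direction, again below the shares of all genes. With library totals these counts became 15 higher in HCC-LM3 and 3 in Huh-7.

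Mitochondrial mRNAs were higher in Huh-7, 12 of 13 past 2-fold (7 with TPM), and MT-CO2 was at 4939, 4942 and 4753 CPM in HCC-LM3 and 20808, 19356 and 18671 CPM in Huh-7. Replication-dependent histones were too, 16 of 21 past 2-fold (9 with TPM). H1-2 was at 9.47, 7.33 and 6.296 CPM in HCC-LM3 and 685, 726 and 644 CPM in Huh-7 (log2 -6.48, SE 0.17). Most histone mRNAs lack a poly(A) tail, and how the RNA was selected is not given in the sources used here, so the part of library preparation in their levels was not tested.

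The 12 largest differences past 2-fold in each direction, among protein-coding genes of at least 10 CPM, added genes outside these groups. Higher in Huh-7 was ASGR2, a subunit of the asialoglycoprotein receptor of hepatocytes, at 0 against 708, 715 and 681 CPM and at least 5940.3-fold higher. The others were plasma proteins, apolipoproteins, AFP, NID1, INS-IGF2 and AC010646.1, a gene that overlaps NR2F6. Higher in HCC-LM3 was peroxidasin (PXDN, chromosome 2, 1631887 to 1744852 on GRCh38), which cross-links basement membrane collagen, at 399, 451 and 419.8 CPM against 0 and at least 2312-fold higher. BASP1, a membrane-bound growth cone protein, was at 329, 324 and 313 CPM against 0, and CCN5, a secreted matricellular protein, at 289, 266 and 262 CPM against 0. The organic anion transporter SLCO4A1 was at 231, 194 and 206 CPM, the phosphodiesterase PDE10A at 116, 151 and 147 CPM and the kinesin-like KIF26A at 302, 288 and 278 CPM, all against 0. LY6K, LY6E and the testis protease PRSS21 completed the list, with KRT7, KRT80 and COL5A1.

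The differences were unevenly spread over the genome. On the X chromosome 230 of 491 tested genes were higher in HCC-LM3 past 2-fold and 72 in Huh-7, and the median was 1.06. X also held 17 of the 85 genes found at 10 CPM in HCC-LM3 with 0 counts in Huh-7, among them MAGEA1. Chromosome 8 had a median of 0.89, and chromosomes 19 and 22 had -0.84 and -0.73. With offsets for GC content and length these were 0.94, 0.61, -0.48 and -0.40, and with library totals 1.44, 1.28, -0.45 and -0.34. The order of the low chromosomes depended on the offsets. With them chromosome 4 went from -0.36 to -0.76, below 19. Chromosomes 20 (-0.37 to -0.44) and 6 (-0.28 to -0.42) fell below 22. Stretches within chromosomes differed too. In windows of 50 neighbouring tested genes, the highest median was 2.60 at the start of chromosome 5, from 92151 to 10472029, where 41 genes were higher in HCC-LM3 past 2-fold and 4 in Huh-7. The lowest was -3.78 further along the same chromosome, from 140401908 to 141942047, with 4 and 33. Of its 50 genes, 30 are clustered protocadherins, adhesion genes of which many share exons, and they make 30 of the 33. Most of these protocadherins passed the filter on low counts only through Huh-7. The other 20 genes had a median of 0.29. With the offsets the windows were at 2.80 and -3.57. The next lowest was -2.15, on chromosome 11 from 65919257 to 67398410, with 4 and 33. With the offsets it was at -1.65, above windows on chromosomes 12 (-2.37) and 14 (-2.12). Genomic DNA was not measured, and the part of copy number was not tested.

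**Figure D5:**
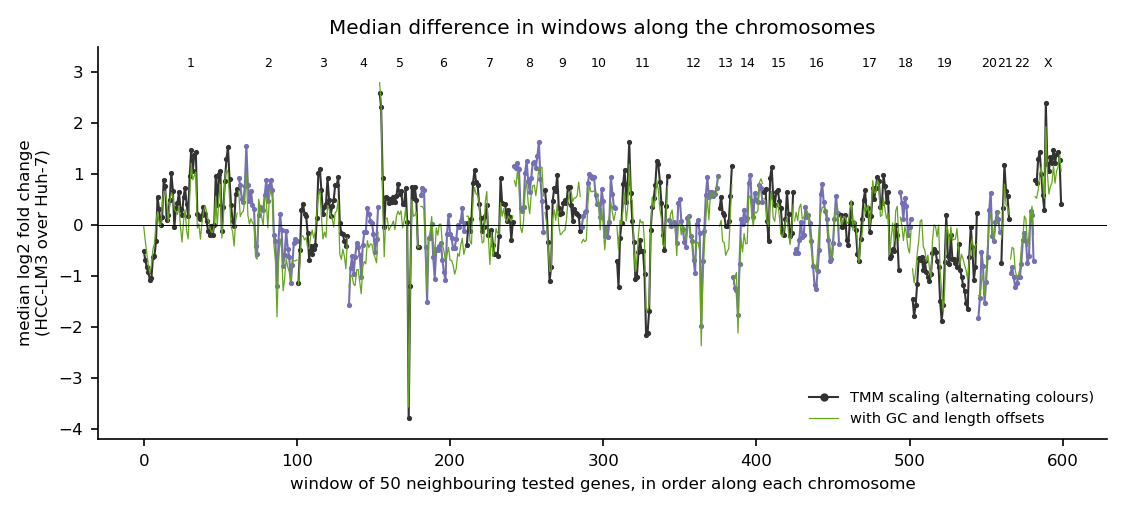
Median log2 fold change, HCC-LM3 over Huh-7, in 600 windows of 50 neighbouring tested genes (y axis), in order along each of 23 chromosomes (x axis, numbered above), with the same after offsets for GC content and gene length as a thin line. The window at the start of chromosome 5 is the highest, at 2.60, and a later one on it, in which 30 of 50 genes are protocadherins, the lowest, at -3.78.

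Reads were assigned by a method and strand setting not given in the sources used here. Of 253 genes the naming rule takes, 86 overlap another annotated gene, so reads of such a pair may be shared. Genes with values above that overlap another include METTL5 (with SSB), TRMT112 (with ESRRA), CEBPA, APOA1, APOB, KRT7, H19, AXL, LDHB and SMARCA2.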

How the data were processed

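RNA sequencing of 6 wild-type libraries, 3 per line, was used. The authors deposited expected counts and TPM per gene. Bowtie 0.12.2 and 2 mouse genome builds (mm8, mm9) are listed per the submitters' processing notes, although the deposited identifiers are human. No source used here names the counter, strandedness, annotation release or human assembly. Of 58884 genes, 99.54% were found by identifier in GENCODE 29 (GRCh38), the source of positions, GC content and lengths.

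Expected counts, as deposited by the authors, were rounded to whole numbers, filtered with filterByExpr and scaled by TMM. The test was that of edgeR 4.0.16 under R 4.3.3 (quasi-likelihood, robust, two-sided, cell line as the only term). A glmTreat test against 2-fold used the same fit. The SE printed is the absolute log2 fold change divided by the square root of the quasi-likelihood F statistic. It is not a direct estimate. Adjusted p-values are Benjamini-Hochberg values over the 15940 genes tested. There were 4 residual degrees of freedom, and an exact permutation test of 3 against 3 could not go below p = 0.1. Replicates differed by more than sampling noise, most for HCC-LM3 replicate 1, and none was a copy of another. The main fit was also run on simulated counts in which few genes differed, equally often in each direction. Most genes differ between these lines, so that run does not test the scaling used here.

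15 alternatives were run, among them DESeq2 1.42.0, limma 3.58.1 (voom, and log2 of the TPM deposited by the authors plus 0.1), other scalings and filters, offsets for GC content and length, a replicate block and leaving out each library. The number of libraries and their depth limit precision.

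The libraries were chosen by label, and the 34 gene lists, 6 marker lists and families were chosen with earlier results of these data known. Named genes were METTL5, TRMT112, the hepatocyte factors, the oncofetal genes, the 12 largest differences per direction past 2-fold (protein-coding, no overlap between the lines, at least 10 CPM) and up to 6 per other list (at least 1 CPM). Further list members are given with their values. Some of these genes are not reported here.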

Additional observations from a re-analysis of the deposited data

How the results depend on the processing

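Across 15 alternatives the number of genes called stayed within 1.5 times 13181, and past 2-fold within 1.5 times 7788, except where noted. With TPM, genes higher in Huh-7 fell to 4243 by adjusted p and to 2258 past 2-fold. Without a filter 15745 of 30648 genes were called. Leaving out each library gave 12871 to 13886 called (6536 to 7001 higher in HCC-LM3, 6228 to 6885 in Huh-7) and 7689 to 8487 past 2-fold (3738 to 4105 and 3820 to 4382). The shared replicate numbers name no common culture, and same-numbered libraries correlated at 0.076, 0.019 and 0.017 in their deviations, with HCC-LM3 replicate 3 closest to Huh-7 replicate 2 (0.04). With the replicate block 13206 genes were called and 7759 were past 2-fold.

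Of 3754 pairs of a named gene and an alternative, 3707 kept direction and call, and past 2-fold 3701 of 3740 did. The sign changed for CEBPB (0.11 with library totals, 0.72 with TPM, 0.44 with offsets), RXRA (0.089, 0.35 and 0.33 likewise), HNF4G (1.36 with TPM), IGF2BP3 (-0.24 with offsets), PPARA (-0.085 with offsets, and -0.022 to 0.23 when a library was left out, below 0 without HCC-LM3 replicate 2) and METTL5 (0.34 with library totals, 0.053 without a filter, 0.64 with TPM, and -0.13 to 0.11 when a library was left out, above 0 without Huh-7 replicate 2). The cause was not tested. Of 39 list medians 13 changed sign under some alternative, among them receptor tyrosine kinases, Wnt, integrins, proteases, NRF2, chromatin writers, m6A machinery and ribosomal proteins. List counts past 2-fold moved by over 1.5 times mainly with TPM, where those higher in Huh-7 became 5 of 27 for fatty acid and sterol synthesis, 7 for receptor tyrosine kinases, 5 for Wnt, 1 for chromatin writers and 1 for ribosomal proteins. Depth limits genes near the floor of 3 counts per library.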

Other observations

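The families below were picked after their values were seen, so their counts are descriptions with no test of the family. The clustered protocadherins, adhesion proteins of which neurons choose different sets, were higher in Huh-7 past 2-fold in 30 of 30 tested genes: 11 of the beta cluster, 18 of the gamma cluster and 1 of the alpha cluster. Most were near 0 in HCC-LM3 and passed the filter on low counts only through Huh-7. The filter thus largely fixed the direction of the tested members, and cluster genes that were not tested are not counted. The 30 lie on chromosome 5 and are 30 of the 50 genes of the window with the lowest median. PCDHB5 was at 0 CPM in HCC-LM3 and 19.4, 16.4 and 15.3 CPM in Huh-7. PCDHGC3 was at 0, 0.0655 and 0.157 CPM in HCC-LM3 and 27.1, 23.8 and 27.03 CPM in Huh-7. The gamma genes share constant exons, so the split of reads among them is uncertain, and PCDHB19P is a pseudogene.

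Forkhead transcription factors were higher in either line. Of 31 tested, 15 were higher in HCC-LM3 past 2-fold and 9 in Huh-7. FOXF1, a factor of the mesenchyme around the gut, was at 22.9, 25.2 and 21.7 CPM in HCC-LM3 and 0 in Huh-7. FOXF2 was at 49.3, 49.2 and 49.7 CPM in HCC-LM3 and 0.0909, 0.109 and 0.06102 CPM in Huh-7, and FOXL1 at 21.5, 20.1 and 21.6 CPM and 0. FOXP4 was on the side of the FOXA genes, at 26.1, 23.4 and 22.4 CPM in HCC-LM3 and 220.3, 188 and 235 CPM in Huh-7. The cancer-testis family GAGE had 3 of 3 tested genes higher in HCC-LM3 past 2-fold, with 0 in Huh-7, but its members are near-identical copies and their separate counts are uncertain. These 3 passed the filter on low counts only through HCC-LM3, which fixed their direction.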
